A study of Mus musculus with 4 samples.

Results

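The 10 CC chemokine genes Ccl2, Ccl3, Ccl4, Ccl5, Ccl6, Ccl7, Ccl9, Ccl12, Ccl22 and Ccl24 were followed in mouse bone marrow-derived macrophages loaded with fatty acids. They were taken by symbol in the platform annotation: each had 1 probe set of its own, so they are 10 of 41345 probe sets and 10 of 22180 genes with a probe set of their own. The KO macrophages came from HilpdaΔMΦ mice, labelled Hilpda knockout. Hilpda is the gene of a lipid droplet protein that inhibits adipose triglyceride lipase. The WT macrophages came from Hilpda flox/flox littermates. Mice were 8 to 12 weeks old, marrow cells of both genotypes were differentiated with 15% L929-conditioned medium, and every culture received 600 µM of palmitate and oleate at 1 part to 2 on albumin, for 24 h or for 12 h. The labels do not name the driver of the deletion, and no fatty acid-free culture was analysed here: a time difference cannot tell the lipid load from time in culture. Each of the 4 groups (KO and WT at 24 h, KO and WT at 12 h) was 1 array carrying the pooled RNA of 3 samples, so no group had a replicate.

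CC chemokines are small secreted proteins with a pair of adjacent cysteines near the amino end, and they direct leukocytes that carry matching G protein-coupled receptors. Resting and activated macrophages are a main source of several of them. The monocyte chemoattractants CCL2, CCL7 and CCL12 act through CCR2, CCL6 and CCL9 through CCR1, CCL22 through CCR4 and CCL24 through CCR3. The macrophage inflammatory proteins CCL3 and CCL4 and the related CCL5 attract monocytes and T cells. On chromosome 11 lie 8 of the 10 genes, per RefSeq, where Ccl2 and Ccl7 are neighbours, as are Ccl5, Ccl9, Ccl6, Ccl3 and Ccl4 in that order. Ccl22 lies on chromosome 8 and Ccl24 on chromosome 5.

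RefSeq promoter sequences (mouse GRCm38.p6) were at hand for Ccl3, Ccl6, Ccl9, Ccl12 and Ccl22. Those of the neighbours Ccl6 and Ccl9, both higher at 24 h than at 12 h in both genotypes, are shown. Ccl3, also a neighbour of Ccl6, was higher at 24 h in both genotypes too, but its alignment with Ccl6 covered only 12 positions. A link of shared bases to the time difference was not tested. Each line gives the 250 bases before the annotated start, 5′ to 3′ on the gene's own strand, and capitals mark runs of at least 6 bases that are identical in an alignment of the 2 genes around their starts. The first run of capitals in Ccl6 is the one in Ccl9, and the others match bases of Ccl9 after its start, which are not printed. Ccl6 is at chr11:83593088-83593337, minus strand, and Ccl9 at chr11:83578637-83578886, minus strand.
Ccl6: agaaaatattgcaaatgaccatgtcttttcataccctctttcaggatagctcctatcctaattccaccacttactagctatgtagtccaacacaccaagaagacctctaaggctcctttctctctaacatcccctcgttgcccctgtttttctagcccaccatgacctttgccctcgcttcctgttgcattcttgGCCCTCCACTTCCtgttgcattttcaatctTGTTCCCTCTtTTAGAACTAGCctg
Ccl9: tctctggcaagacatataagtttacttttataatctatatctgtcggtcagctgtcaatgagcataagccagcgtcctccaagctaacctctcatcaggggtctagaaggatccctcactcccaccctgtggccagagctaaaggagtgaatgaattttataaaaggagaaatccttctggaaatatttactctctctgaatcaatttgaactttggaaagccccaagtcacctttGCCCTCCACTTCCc
The aligned stretch began at position -59 of Ccl6 and -18 of Ccl9, counted back from each start, ran on past both starts, and held 59 identical positions of 74, or 79.7%. Its longest shared run was 13 bases. No other pair among the 5 promoters had an alignment longer than 21 positions. Both strands were searched for 4 motifs. The TATA box TATAAA was found at 3 places in Ccl9, 2 of which overlap, and at 1 in Ccl12 (12.4% of all 32851 promoters of that length held it). The PU.1 core AGGAAGT was found once in Ccl6, overlapping the longest shared run, and once in Ccl12 (7.69% of promoters), and the AP-1 motif TGANTCA once in Ccl9 (6.75%). The NF-kB motif, searched as GGANTTTCC and GGAANTTCC, was found once in Ccl12 (1.59%). None of the 4 was found in Ccl3 or Ccl22. A match is a description of the letters and not a bound site.

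The arrays correlated pairwise at 0.984 to 0.988 over all probe sets. Hilpda itself had a log2 level of 5.27 in KO and 5.47 in WT at 24 h, and 5.41 in KO and 5.93 in WT at 12 h. The KO minus WT difference was -0.20 at 24 h and -0.51 at 12 h, short of 1.5-fold at each time. The central 95% of genes kept ran from -0.66 to 0.62 at 24 h and from -0.5 to 0.49 at 12 h. The levels are a limited check of the labels, also because the deleted part is not stated. All 8 macrophage markers, among them Adgre1 and Csf1r, were above the limit of dim genes on every array, whereas at most 1 of 8 neutrophil, 1 of 6 T and natural killer cell, 1 of 3 B cell and 1 of 6 mast cell, basophil and eosinophil markers was on any array. That limit, 2.62 on the log2 scale, is the 95th percentile of 1405 olfactory, vomeronasal and trace amine receptor genes, which macrophages are not expected to use. Of 9 stromal markers 7 were above it on every array.

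The level filter kept genes whose mean over the arrays reached 2.44 on the log2 scale, the 40th percentile of probe sets with 1 symbol. It kept 8 of the 10 chemokine genes and 13354 of all genes. Ccl12, a mouse CCR2 ligand, lay at 1.95 in KO and 1.83 in WT at 24 h, and at 1.89 in KO and 1.83 in WT at 12 h. Ccl24, an eosinophil attractant of alternatively activated macrophages, lay at 1.91 in KO and 2.27 in WT at 24 h, and at 2.15 in KO and 1.94 in WT at 12 h. Both were under the limit of dim genes on all 4 arrays, so their differences were not read. Ccl22, which attracts CCR4-bearing T cells, straddled the limit at 2.76 in KO and 2.55 in WT at 24 h, and at 2.57 in KO and 2.75 in WT at 12 h. The remaining 7 were above it on all 4 arrays.

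**Figure D1:**
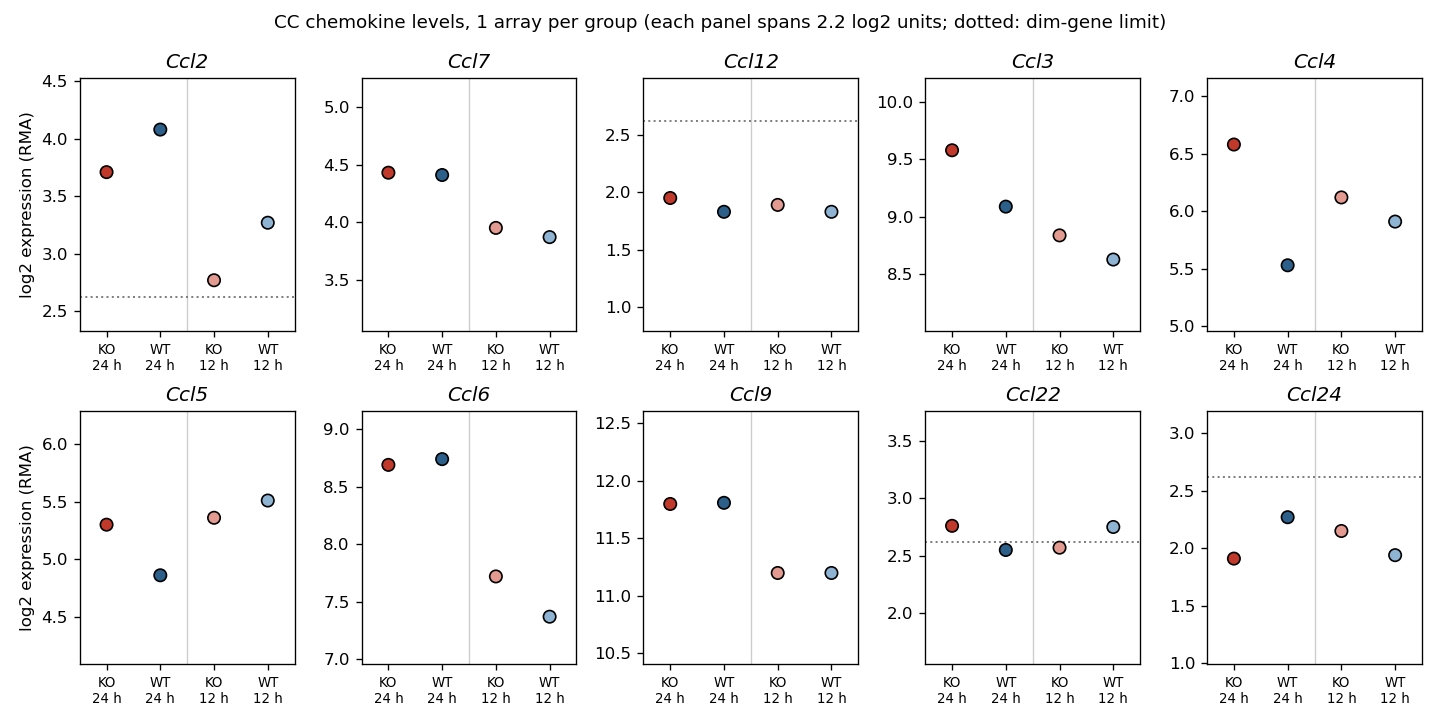
Log2 expression (vertical axes, RMA values) of each CC chemokine gene on the 4 arrays, 1 point per array, from left KO and WT at 24 h and KO and WT at 12 h; each panel spans 2.2 log2 units and the dotted line is the dim-gene limit of 2.62. Ccl6 and Ccl9 separate by time, Ccl4 is highest in KO at 24 h (6.58) and lowest in WT at 24 h (5.53), and Ccl12 and Ccl24 stay below the line.

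Between the times, 5 of the 8 chemokines past the level filter were higher on both 24 h arrays than on both 12 h arrays: Ccl2, Ccl7, Ccl3, Ccl6 and Ccl9. Over all genes kept, 21.3% had both 24 h arrays above both 12 h arrays and 22.3% below, and 1 chemokine, Ccl5, was on the lower side. The median time difference of the 8 was 0.54 in KO and 0.50 in WT on the log2 scale, beside 0.00 and -0.01 over all genes kept. Past 1.5-fold, 4 were higher in KO (3.05% of all genes) and 0 lower (3.24%), and 3 were higher in WT (4.73%) and 1 lower (4.01%). Ccl2, Ccl6 and Ccl9 were past 1.5-fold on the higher side in both genotypes, as were 1.33% of all genes.

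Ccl6, a CCR1 ligand first known from rodents and strongly expressed by myeloid cells, had the largest time difference of the 10. Its log2 level was 8.69 in KO and 8.74 in WT at 24 h, against 7.72 in KO and 7.37 in WT at 12 h. The 24 h arrays lay close together and clear of both 12 h arrays. The difference was 0.97 or 1.96-fold in KO and 1.37 or 2.58-fold in WT, and 75 and 51 of the 13354 genes, Ccl6 included, were as high or higher. In limma's additive fit over all 4 arrays the time term was 1.17 with a standard error of 0.15 (adjusted p = 0.15). Ccl9, also a CCR1 ligand, was at 11.80 in KO and 11.81 in WT at 24 h, against 11.20 in both genotypes at 12 h. The time difference was 0.60 or 1.52-fold in each genotype, just past the 1.5-fold line. Among the 77 genes kept within 0.5 of its level, the central 95% ran from -0.37 to 0.41 in KO and from -0.44 to 0.54 in WT. The limma estimate was 0.60 with a standard error of 0.11 (adjusted p = 0.195).

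Ccl2, the principal monocyte chemoattractant, was at 3.71 in KO and 4.08 in WT at 24 h, against 2.77 in KO and 3.27 in WT at 12 h. It was lower in KO at each time and higher at 24 h in each genotype. The time difference was 0.94 or 1.91-fold in KO and 0.81 or 1.76-fold in WT. Genes of like level had central 95% ranges up to 0.78 in KO, below the value of Ccl2, and up to 0.98 in WT, above it. The limma time estimate was 0.87 with a standard error of 0.12 (adjusted p = 0.15). Ccl7, its neighbour and a further CCR2 ligand, was at 4.43 in KO and 4.41 in WT at 24 h, against 3.95 in KO and 3.87 in WT at 12 h. Its time differences of 0.48 and 0.54 did not reach 1.5-fold and lay inside the range of genes of like level (limma adjusted p = 0.218).

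Ccl3, which encodes macrophage inflammatory protein 1 alpha, was at 9.58 in KO and 9.09 in WT at 24 h, against 8.84 in KO and 8.63 in WT at 12 h. The KO array of 24 h was the highest, and the pairs of different time did not overlap. The time difference was 0.75 or 1.68-fold in KO and 0.46 or 1.38-fold in WT. Genes of like level ran up to 0.47 in KO, below the value of Ccl3, and up to 0.65 in WT, above it. The limma time estimate was 0.60 with a standard error of 0.13 (adjusted p = 0.218). Ccl5, whose product attracts T cells and monocytes, was at 5.30 in KO and 4.86 in WT at 24 h, against 5.36 in KO and 5.51 in WT at 12 h. Its time difference was -0.65 in WT, past 1.5-fold but inside the range of genes of like level, and -0.07 in KO (limma adjusted p = 0.489).

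No gene had an adjusted p under 0.05 for time in limma's fit (0% of 13354), while 13.2% had an unadjusted p under 0.05, 880 of them higher at 24 h. Of the 8 chemokines, 5 had an unadjusted p under 0.05, all on the higher side. The single residual degree of freedom (1) of the fit measures how far the genotype difference shifts with time, and no replicate error enters it. The standard errors given also draw on the variances of all genes kept, which brings the total degrees of freedom to 4.31. With a variance trend on level, limma gave Ccl6 an adjusted p of 0.00236, Ccl9 of 0.00425, Ccl3 of 0.0117 and Ccl2 of 0.0491, so these calls depend on how the variance was modelled.

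**Figure D2:**
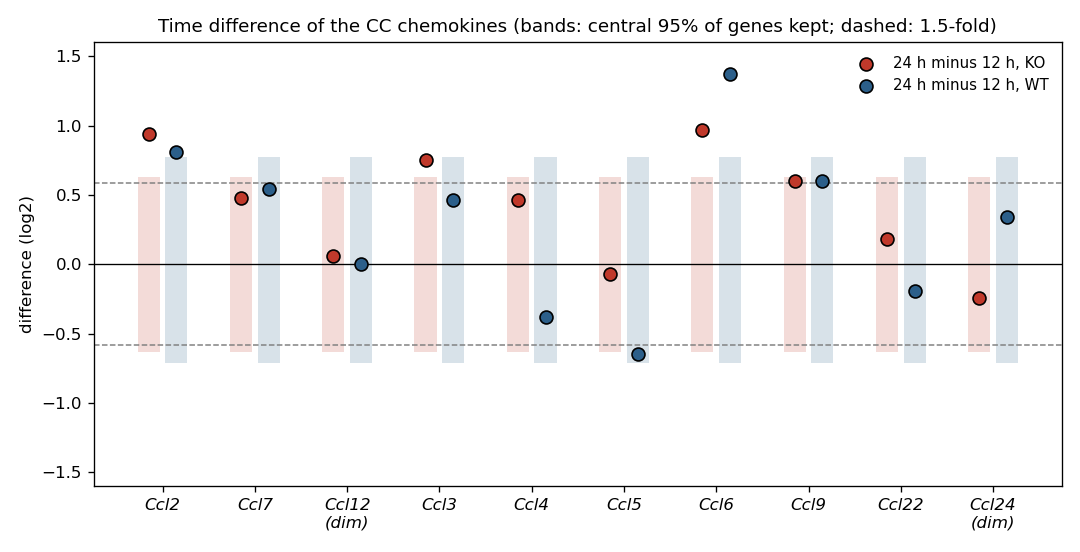
Difference of log2 expression, 24 h minus 12 h, for each CC chemokine gene in KO (red, left) and WT (blue, right); bands are the central 95% of the 13354 genes kept, dashed lines mark 1.5-fold. Ccl2 and Ccl6 lie above both bands, Ccl3 lies above the KO band alone, and the lowest points are Ccl5 and Ccl4 in WT (-0.65 and -0.38).

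Between the genotypes, 1 of the 8 chemokine genes was past 1.5-fold at 24 h and 0 were at 12 h. Ccl4, which encodes macrophage inflammatory protein 1 beta, had a log2 level of 6.58 in KO and 5.53 in WT at 24 h, and 6.12 in KO and 5.91 in WT at 12 h. Both KO arrays were above both WT arrays, and the 2 arrays farthest apart were those of 24 h. The genotype difference was 1.05 or 2.06-fold at 24 h, and 36 of the 13354 genes, Ccl4 included, were as high or higher. Among genes of like level the central 95% ran from -0.58 to 0.64. At 12 h the difference was 0.21 or 1.16-fold, inside the range of -0.39 to 0.38. Ccl4 was the only 1 of the 8 past 1.5-fold on the higher side at 24 h (2.97% of all genes), with 0 on the lower side (3.5%), and at 12 h the counts were 0 and 0 (1.5% and 1.4% of all genes). Of the 8 past the level filter it was also the only 1 with both KO arrays above both WT arrays, as had 15.9% of all genes, and 0 of the 8 had both below (14.5%).

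Each array enters 1 genotype and 1 time difference, whose chance errors are therefore shared. Relative to the 12 h array of its own genotype, Ccl4 was higher by 0.46 in KO and differed by -0.38 in WT. The genotype difference at 24 h exceeded that at 12 h by 0.84 on the log2 scale, or 1.79-fold, which could not be tested with 1 array per group. Ccl3 and Ccl5 lay on the same side at 24 h. Ccl3 was higher in KO by 0.49 or 1.41-fold, above the 0.39 that bounded genes of like level, and 616 genes, Ccl3 included, were as high or higher. Ccl5 was higher in KO by 0.44 or 1.35-fold, inside the range of genes of like level (up to 0.68). At 12 h Ccl3 differed by 0.21 and Ccl5 by -0.14. At 24 h 7 of 8 macrophage markers were lower in KO, as were 6549 of the 13354 genes kept. Past 1.5-fold lower was 1 of the 8 (3.5% of all genes). The summed log2 levels of these markers were 85.7 in KO and 88.0 in WT, and their part in these differences was not tested. Ccl3, Ccl4 and Ccl5 share the same 2 arrays at each time, so their common side is not independent evidence. Ccl3 and Ccl4 are neighbours, and their annotated spans overlap in RefSeq's table.

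Ccl2 was lower in KO at both times, by less than 1.5-fold. Its genotype difference was -0.37 at 24 h and -0.49 at 12 h, each inside the range of genes of like level (-0.83 to 0.74 and -0.64 to 0.67). Ccl6 differed by -0.04 at 24 h and was higher in KO by 0.36 or 1.28-fold at 12 h, above the 0.24 that bounded genes of like level. Ccl9 differed by 0.00 at both times, and Ccl7 by 0.02 at 24 h and 0.08 at 12 h. For the genotype term of the same limma fit, the adjusted p was under 0.05 in 0 genes (0%) and the unadjusted p in 6.51%, among them Ccl4 on the higher side and Ccl2 on the lower. Ccl4 was at 0.63 with a standard error of 0.23, Ccl2 at -0.43 with 0.12 and Ccl3 at 0.35 with 0.13, each with an adjusted limma p of 0.762.

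**Figure D3:**
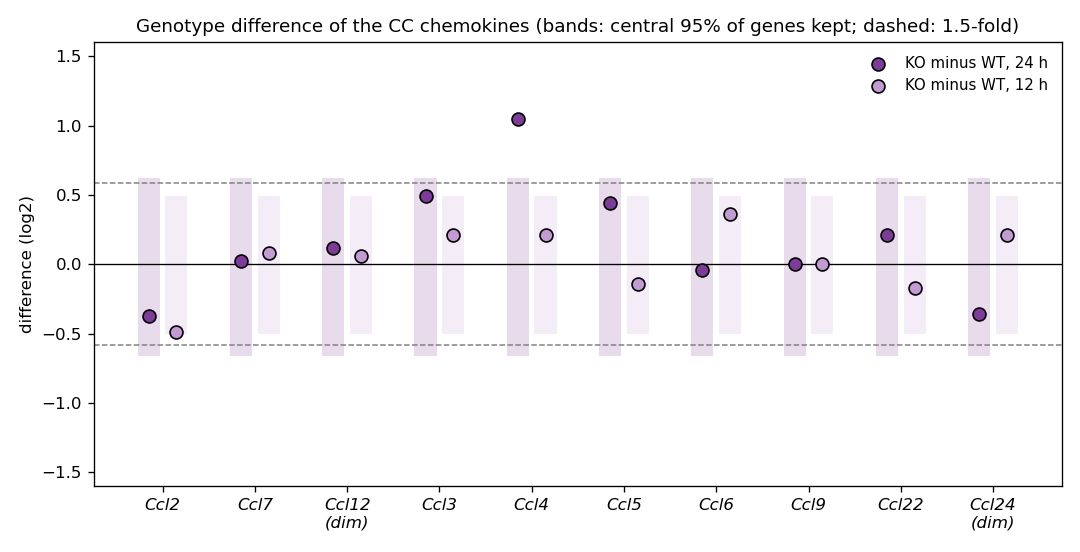
Difference of log2 expression, KO minus WT, for each CC chemokine gene at 24 h (dark, left) and 12 h (light, right); bands are the central 95% of the 13354 genes kept, dashed lines mark 1.5-fold. Ccl4 at 24 h (1.05) is the single point beyond the bands and the dashed lines, and Ccl9 lies at 0 at both times.

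Markers of stromal cells, which also make CCL2, lay on the side of Ccl2. All 7 of the 9 stromal markers that passed the level filter were lower in KO at both times, with medians of -0.86 at 24 h and -0.56 at 12 h. Of the 13354 genes kept, 6549 were lower in KO at 24 h and 6599 at 12 h. Higher at 24 h than at 12 h in each genotype were 6 of the 7 markers, beside 6725 of all genes in KO and 6559 in WT. The summed log2 level of the 9 markers was 40.9 in KO and 45.6 in WT at 24 h, and 38.1 in KO and 42.1 in WT at 12 h. Lum and Thy1, the 2 that did not pass the level filter, were near background. By Ccl2 the 4 arrays ran, from the highest, WT at 24 h, KO at 24 h, WT at 12 h and KO at 12 h. Col3a1 and Pdgfra had that order, whereas Col1a1, Col1a2, Cd248, Pdgfrb and Dcn did not. These orders were compared after the values were seen. The collagen gene Col3a1 was at 4.28 in KO and 4.78 in WT at 24 h and 3.62 in KO and 4.09 in WT at 12 h. The order of Col1a1 differed, at 8.00 in KO and 8.87 in WT at 24 h and 7.49 in KO and 8.07 in WT at 12 h, and Pdgfrb differed between the genotypes by only -0.07 at 24 h and -0.15 at 12 h. The part of these cells in the level of Ccl2 was not tested, and in pooled RNA fewer cells of a type and less RNA per cell cannot be told apart.

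**Figure D4:**
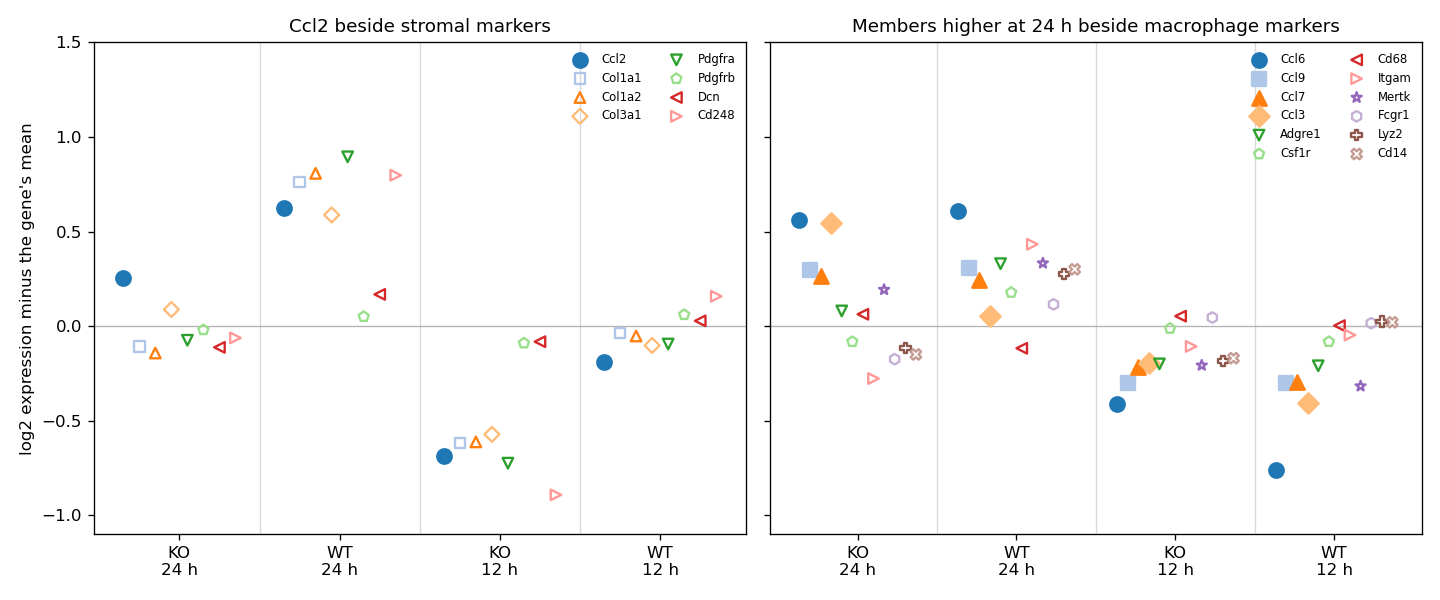
Log2 expression minus each gene's mean over the 4 arrays, 1 point per gene and array, for Ccl2 with the 7 stromal markers past the level filter (left) and for Ccl6, Ccl9, Ccl7 and Ccl3 with the 8 macrophage markers (right); filled symbols are chemokines. Ccl2 is highest in WT at 24 h and lowest in KO at 12 h, as are most stromal markers, while Pdgfrb and Dcn vary little. The 4 chemokines on the right lie above 0 at 24 h and below it at 12 h. The 8 macrophage markers had a median time difference of 0.27 in WT and 0.02 in KO. Adgre1 and Mertk among them were higher on both 24 h arrays than on both 12 h arrays, as were 21.3% of all genes kept.

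Patterns over the 4 arrays were compared by the root mean square distance between centred log2 values, for the 3 members with a range of at least 1. The nearest genes to Ccl2 were Bicc1 at 0.0395, Fbln2, a matrix protein gene, at 0.0471 and Igfbp7, a secreted binding protein gene, at 0.0483. Nearest to Ccl6 were Sorl1, a sorting receptor gene, at 0.0586, Gas6, the gene of a ligand of the TAM receptors, at 0.0848 and Entpd1, the gene of the ectonucleotidase CD39, at 0.0942. Nearest to Ccl4 were Dnmt3aos at 0.0245, Zfp942 at 0.0547 and the acute-phase gene Saa3 at 0.0598. Among the members themselves Ccl4 was nearest to Ccl5 (0.318), Ccl22 (0.327) and Ccl3 (0.343), Ccl2 to Ccl9 (0.257), and Ccl6 to Ccl9 (0.31). The likeness is a description over 4 arrays.

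Of 11 other CC chemokine ligands, 9 had a probe set of their own and 4 passed the level filter. Between the genotypes 0 of the 4 were past 1.5-fold. Of all genes, 2.97% were higher and 3.5% lower at 24 h, and 1.5% and 1.4% at 12 h. At 24 h Ccl28 differed by 0.25, with both of its levels under the limit of dim genes, Ccl25 by 0.10 and Ccl27a by -0.13. At 12 h Ccl27a differed by 0.40, Ccl28 by 0.20 and Ccl25 by -0.38. Ccl20 was above the limit of dim genes on 1 array, so its differences were not read. Ccl28, a mucosal chemokine, had a time difference of -0.56 in KO and, past 1.5-fold, of -0.61 in WT, and was above the limit of dim genes on 2 arrays, at levels of 2.38 in KO and 2.13 in WT at 24 h and 2.94 in KO and 2.74 in WT at 12 h. Ccl27a, a skin chemokine with near-identical copies in mouse, was at -0.63 in KO and -0.10 in WT over the same interval. Ccl1, Ccl8, Ccl11, Ccl17 and Ccl26 did not pass.

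The receptors that read these ligands gave a mixed picture. Of the 13 measured, 6 passed the level filter. At 24 h 2 of the 6 were past 1.5-fold lower in KO and 0 higher (3.5% and 2.97% of all genes), and at 12 h 0 were in either direction (1.4% and 1.5%). Ccr3, the receptor of CCL24, was at 5.93 in KO and 6.76 in WT at 24 h, and at 5.01 in KO and 5.22 in WT at 12 h. It was thus higher at 24 h in both genotypes, by 0.93 in KO and 1.55 in WT (limma adjusted p = 0.166), and differed between genotypes by -0.83 at 24 h and -0.21 at 12 h. Ccr2, the receptor of CCL2, was at 3.56 in KO and 4.38 in WT at 24 h, and at 4.12 in KO and 4.10 in WT at 12 h. Ccrl2, a non-signalling relative, was higher in KO by 0.48 at 24 h and 0.31 at 12 h, and Ccr1, the receptor of CCL6 and CCL9, by 0.26 at 24 h, with -0.14 at 12 h. Ackr2, a scavenging receptor, was above the limit of dim genes on 1 array, so its differences were not read.

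Several chemokine genes are known targets of NF-kB, and a list of NF-kB pathway and target genes was set beside them. At 24 h 0 of its 20 members past the level filter were past 1.5-fold higher in KO and 5 were lower. The shares of all genes were 2.97% and 3.5%. The KO minus WT difference was below 0 for 15, and the median was -0.25 beside 0.01 over all genes and -0.27 over the 8 macrophage markers, of which 7 were below 0. The part of NF-kB in the difference of Ccl4 was not tested, nor was that of the macrophage markers. The 5 past 1.5-fold were Bcl3, an atypical IkB protein gene, at -1.08, Ptgs2 at -0.84, Ier3 at -0.83, Nfkbiz at -0.82 and Il1b at -1.47. For Bcl3 the WT array of 24 h stood apart at 8.31, beside 7.23 in KO at 24 h, 7.53 in KO at 12 h and 7.46 in WT at 12 h. Tnf was on the side of Ccl4, higher in KO by 0.30 at 24 h, with -0.12 at 12 h, and Nfkbib, the gene of an IkB protein, followed at 0.22. Il1b was above the limit of dim genes on the WT array of 24 h alone, so the size of its difference was not read. At 12 h 0 of the 20 were past 1.5-fold (1.5% of all genes higher and 1.4% lower). The median was -0.06, with Cd40 at 0.42 and Ptgs2 at 0.19 highest and Nfkbiz at -0.50 and Nfkbia at -0.25 lowest.

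Interleukin 4 and STAT6 targets were set beside Ccl22 and Ccl24, which are induced with them in alternatively activated macrophages. Of 15 listed, 8 passed the level filter. At 24 h 7 of the 8 were below 0 in KO, with a median of -0.37 beside 0.01 over all genes and -0.27 over the macrophage markers, of which 7 of 8 were also below 0. Past 1.5-fold lower were 2 (3.5% of all genes), Klf4 at -0.71 and Il4ra at -0.63, and the highest were Arg1 at 0.05 and Stat6 at -0.04. At 12 h the median was 0.04 with 0 past 1.5-fold (1.5% of all genes higher and 1.4% lower). The values ran from Irf4 at 0.41 and Mrc1 at 0.26 to Il4ra at -0.12 and Klf4 at -0.30. Mrc1, the mannose receptor gene, was higher at 24 h by 2.39 in KO and 3.19 in WT, while Ccl24 and the related ligand gene Ccl17 stayed under the limit of dim genes. Of the 6 measured dendritic cell markers, which cells making CCL22 and CCL17 often carry, Cd209a, Itgax and Ccr7 were above the limit on every array. Xcr1 was above it on 3 arrays, and Flt3 and Zbtb46 on none.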

How the data were processed

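Transcripts of cultured mouse macrophages were measured on Affymetrix whole-transcript arrays, 1 array for each of 4 groups, and groups were assigned from genotype and time in the sample titles. The authors deposited 1 log2 value per probe set and array. Per the submitters' processing notes these came from RMA. RMA equalises the arrays' distributions, so a shift of all transcripts would not show. The log2 scale was read from the values (highest 13.2, array medians 2.70 to 2.73). The version and annotation of RMA are not given in the sources used here.

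Of 41345 probe sets, 23521 had 1 symbol, 1814 several and 16010 none listed. The probe set with the highest mean stood for each of the 1082 genes with more than 1. All 10 members matched RefSeq's GRCm38.p6 table by gene ID. That table and its promoters served for names, order and sequence.

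Differences were KO minus WT and 24 h minus 12 h, untested at 1 array per group. Genes of like level are genes kept within 0.5 of a member's mean. The only test was limma 3.58.1 in R 4.3.3, with both terms added, over all 13354 genes kept, with Benjamini-Hochberg adjustment, and its steps were tested on simulated data. The number of arrays limits the precision. The named genes were the 10 members, and from 4 gene lists the members past 1.5-fold in 1 direction at both times and the 2 highest and 2 lowest at each time, with the 3 nearest genes in pattern for members with a range of at least 1 (unnamed clones, predicted genes, olfactory receptors and small RNAs passed over). Other names in the text come from small counts or were picked with their values in view. The members and lists were chosen with earlier results of these data known. Alternatives were no level filter, a 60th percentile filter, a fold rule of 1.3 or of 2, the mean over probe sets, a variance trend, a loess (span 0.3), quantile normalization and centring on medians.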

Additional observations from a re-analysis of the deposited data

Results flagged for a closer look

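The time difference of Ccl4 had opposite signs in the genotypes: 0.46 in KO and -0.38 in WT on the log2 scale. The KO value exceeded the WT value by 0.84. With 1 array per group this difference was not tested. Members past the level filter were considered where the signs were opposite and the change was past 1.5-fold.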

How the results depend on the processing

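No pairing of replicates was possible because each group had 1 array and the labels give no replicate numbers, so no replicate could be left out either. The limma fit set the genotypes against each other within time through its added terms. The count of chemokine genes past 1.5-fold was unchanged within 1.5 times under both level filters, median centring, quantile normalization, loess and the mean over probe sets in all 4 comparisons. With a fold rule of 1.3 the count was 3 between the genotypes at 24 h (against 1) and 1 at 12 h (against 0). With a fold rule of 2 it was 0 over time in KO (against 4) and 1 in WT (against 4). For the limma time term, 4 members were called with a variance trend and 1 at the 60th percentile filter (Ccl6, adjusted p 0.0439, with 9089 genes tested), against 0. Over all genes that term called 539 with the trend, 114 at the 60th percentile and 38 after median centring, against 0. The genotype term called 0 under every alternative run. Fewer genes passed 1.5-fold between the genotypes at the 60th percentile filter, 212 higher and 199 lower at 24 h and 42 and 59 at 12 h, against 397 and 468, and 200 and 187. Over time 209 were higher and 225 lower in KO and 346 and 352 in WT, against 407 and 433, and 631 and 535. With no filter 316 were higher and 312 lower at 12 h. Signal near background limits what can be said of Ccl12, Ccl22 and Ccl24.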

Other observations

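Csf1, the gene of the growth factor that the L929 medium supplies and on which macrophages depend, had a log2 level of 6.49 in KO and 7.44 in WT at 24 h, and of 5.92 in KO and 6.66 in WT at 12 h. It was lower in KO at each time, as Ccl2 was, and higher at 24 h in each genotype. In limma's fit its genotype estimate was -0.85 (adjusted p = 0.762) and its time estimate 0.67 (adjusted p = 0.192). Csf2, the gene of a growth factor of granulocytes and macrophages, stayed between 2.09 and 2.30 on the 4 arrays, under the limit of dim genes.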
